A study of Mus musculus with 39 samples.

Results

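The 6 genes of one receptor system are described here, the adaptors Tyrobp and Fcer1g, the receptor Trem2 and the Fc receptors Fcgr1, Fcgr2b and Fcgr3. All probe sets annotated with one of these symbols and with no other were taken, which gave 10 probe sets of 22626 tested and 6 genes of 12393 named by a single symbol. Trem2 has 2 probe sets, Fcgr2b has 4, and each other gene has 1. RNA was taken from the whole inferior colliculus, where ascending auditory pathways converge in the midbrain, of 39 untreated CBA/CaJ mice bred in house, an inbred strain studied for its hearing loss with age. Each mouse gave 1 Affymetrix MOE430A array, on which a probe set is a group of short probes for one transcript. Good hearing defined 2 of the 4 groups, the 8 young adult controls (4 of them female) and the 17 middle-aged animals (10 female). Presbycusis, hearing loss with age, was mild in 9 mice (4 female) and severe in 5, of which 1 was male. Beyond these group names, no ages are given in the sources used here, so in the presbycusis groups age and hearing loss cannot be told apart.

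Tyrobp, also called DAP12, and Fcer1g, the common Fc receptor gamma chain, are short membrane adaptors whose cytoplasmic tails carry an immunoreceptor tyrosine-based activation motif (ITAM). They pair with receptors that have almost no signalling tail of their own, and Src-family kinases and Syk carry the signal onward. Trem2 is a lipid-sensing receptor of microglia, the resident macrophages of the brain, and signals through Tyrobp. Fcgr1, the high-affinity receptor for immunoglobulin G, and Fcgr3, a low-affinity one, signal through Fcer1g, while Fcgr2b carries an inhibitory motif (ITIM) in its own tail and dampens the others. In the brain these genes are known mainly from microglia and other macrophages. In the RefSeq annotation of GRCm38.p6, Fcer1g, Fcgr2b and Fcgr3 lie on chromosome 1, where Fcgr4 is the only protein-coding gene between Fcgr2b and Fcgr3, and Tyrobp lies on chromosome 7 beside Hcst, the gene of the related adaptor DAP10.

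Stretches of the promoters are shown because these genes are known together from myeloid cells, and some of them passed the test here while others did not. RefSeq promoter windows of 300 bases, from 250 before to 50 after the annotated start, were matched by symbol for 5 of the 6 genes, all but Tyrobp. Each stretch runs 5′ to 3′ on the strand of its gene, from 80 bases before to 20 bases after the start, in GRCm38.p6. The positions are chr1:171059384-171059483 for Fcgr3, chr3:96293950-96294049 for Fcgr1, chr1:171234330-171234429 for Fcer1g and chr1:170976052-170976151 for Fcgr2b, all on the minus strand, and chr17:48346321-48346420 for Trem2 on the plus strand. Capitals mark GAGGAA on either strand, one form of the letters bound by PU.1, an ETS-family transcription factor of myeloid cells. Other forms were not searched. The shorter GGAA also occurs in the Fcer1g and Fcgr2b stretches and is not marked.
Fcgr3: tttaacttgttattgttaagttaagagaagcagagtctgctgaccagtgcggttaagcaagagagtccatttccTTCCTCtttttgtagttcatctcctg
Fcgr1: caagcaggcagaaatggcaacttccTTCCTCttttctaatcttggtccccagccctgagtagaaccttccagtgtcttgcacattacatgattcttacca
Trem2: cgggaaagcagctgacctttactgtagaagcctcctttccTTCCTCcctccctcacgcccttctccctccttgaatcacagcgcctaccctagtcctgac
Fcer1g: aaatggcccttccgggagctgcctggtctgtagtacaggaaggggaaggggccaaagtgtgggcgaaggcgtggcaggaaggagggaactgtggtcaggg
Fcgr2b: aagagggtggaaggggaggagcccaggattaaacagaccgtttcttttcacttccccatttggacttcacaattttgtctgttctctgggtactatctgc
The letters were found in the 300-base windows of 3 of the 5 genes, Fcgr3, Fcgr1 and Trem2, each time on the strand opposite to the gene. They lay at bases 6 to 1 before the start of Fcgr3 (15 to 10 before its second annotated start), 55 to 50 before that of Fcgr1 and 40 to 35 before that of Trem2. Of all 32851 windows, 28.3% held the same letters, so a match is a description and does not by itself show a binding site. Binding was not tested. Fcgr3 and Fcgr1 shared the run ttccttcctctttt across the match, the longest run shared by any 2 of these genes (14 bases), a comparison made after the sequences were seen. Of this pair Fcgr3 was higher in both presbycusis groups, while the differences of Fcgr1 did not pass.

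Median intensities per array ran from 149.8 to 224, each array had been scaled to the same trimmed mean, and array pairs correlated with r of 0.9243 to 0.9746. Young replicate 2 and middle-aged replicates 7 and 8 carried the strongest signal of cerebellar marker genes, with mean log2 levels of 10.93, 9.93 and 8.05. Only the first and second of them stood apart, since the next array was at 8.02, and member calls that changed without these 3 arrays are given below. The log2 ratio of 3′ over 5′ control probe sets, a sign of RNA integrity, had medians of 2.48, 2.39, 2.26 and 2.15 in young, middle-aged, mild and severe mice, with overlapping ranges. In bulk tissue, more cells of a type and more RNA per cell cannot be told apart. Differences below are in log2(intensity + 16) from limma with sex as a covariate, with their standard error (SE), and understate the change of dim genes. A probe set is called where its p-value, adjusted by Benjamini-Hochberg over all 22626 probe sets, lies below 0.05. Mouse numbers do not repeat, and each array is taken as 1 animal. Marker genes of neurons were bright in every group, with a summed intensity of 7 genes from 17020 to 43770.

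Across the 4 groups, Tyrobp and Fcgr3 differed most. In limma's F-test they ranked 19 and 20 of all probe sets by p (adjusted p 5.74e-06 and 6.78e-06). One further member probe set, 1435477_s_at of Fcgr2b, also passed (adjusted p 0.0322). This made 3 of 10 member probe sets called, where 0.53% of all probe sets were called. The other 7 had adjusted p from 0.598 to 0.998.

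**Figure D1:**
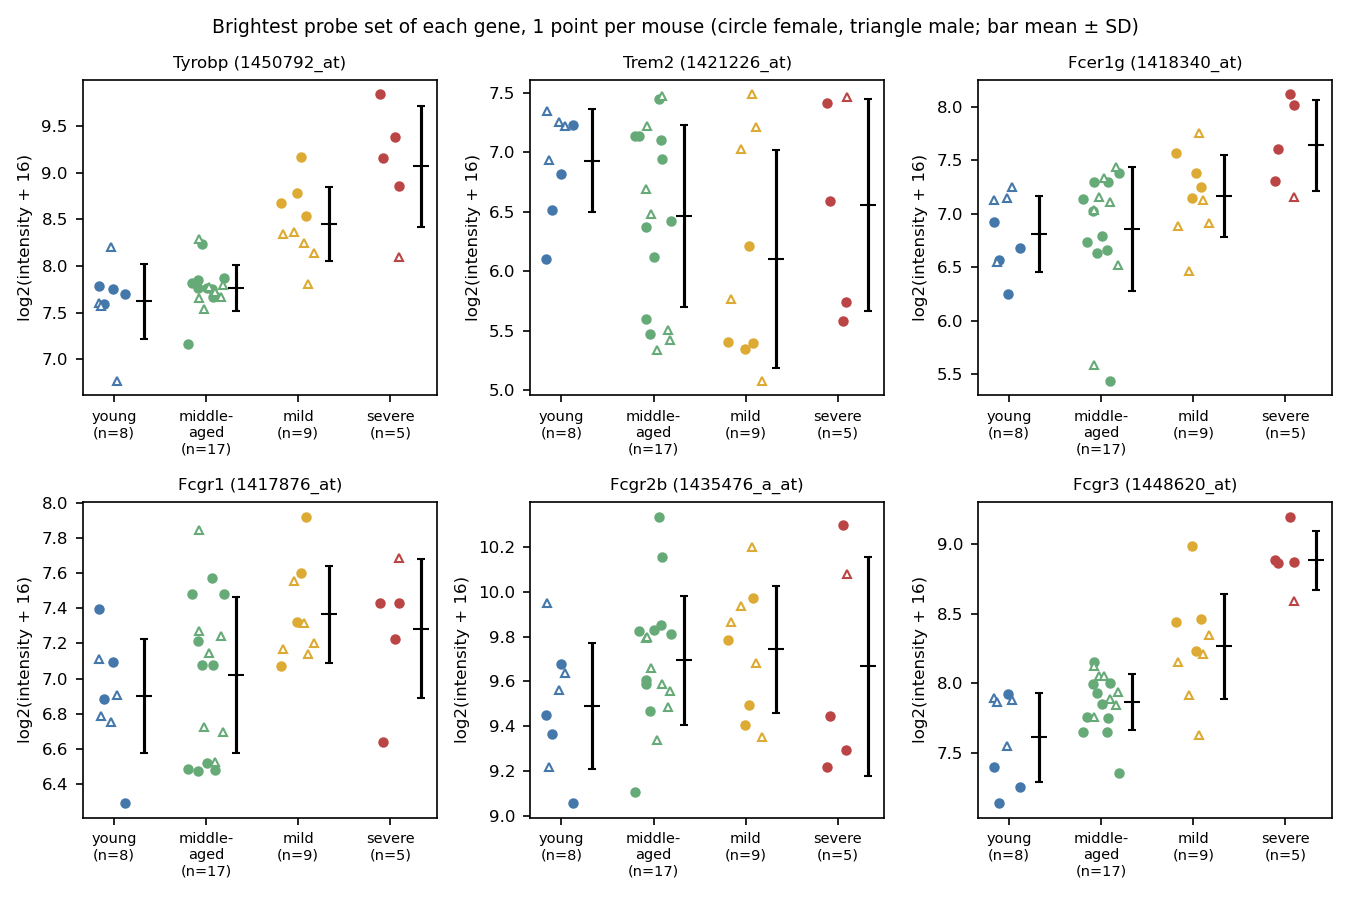
Level of the brightest probe set of each of the 6 genes, as log2(intensity + 16) on the vertical axis, in the 4 groups on the horizontal axis, with 1 point per mouse (filled circles females, open triangles males) and bars for the mean ± SD. The 5 severe mice lie above every young and middle-aged mouse for Fcgr3, and the Tyrobp level of the severe male lies within the range of the controls. Trem2 values spread more widely in middle-aged, mild and severe mice than in young mice.

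Tyrobp was measured by 1 probe set (1450792_at). Its intensity in the 5 severe mice was 903, 654, 557 and 450 in the females and 257 in the male. In young mice it had a median of 185 (92.7 to 279, n = 8), at middle age of 200.6 (127.7 to 296, n = 17) and in mild presbycusis of 312.9 (208.5 to 558, n = 9). The 4 severe females thus stood above all young and middle-aged mice, and the severe male did not. In mild presbycusis 7 of 9 mice were above the highest young mouse. The level was 1.36 higher in severe than in young mice (SE 0.20, 95% interval 0.95 to 1.78, fold 2.57, adjusted p 5.25e-05, higher than the young mean in 5 of 5). It was 0.85 higher in mild than in young mice (SE 0.17, 95% interval 0.50 to 1.19, fold 1.8, adjusted p 0.0138, higher in 9 of 9). Against middle-aged mice it was 1.25 higher in severe (SE 0.18, adjusted p 3.64e-05) and 0.73 higher in mild presbycusis (SE 0.15, adjusted p 0.0156). Neighbours in the order of the means did not pass where both groups heard well or both did not. Middle-aged and young mice differed by 0.12 (SE 0.15, adjusted p 1), and severe and mild by 0.52 (SE 0.20, 95% interval 0.11 to 0.92, unadjusted p 0.0138, adjusted p 1).

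The Tyrobp call in mild against young mice was lost without young replicate 4, the mouse with the lowest value (0.74, adjusted p 0.0503). It was also lost without the 3 arrays with cerebellar signal (0.82, adjusted p 0.0526), with only those groups in the fit (0.85, adjusted p 0.0613) and among males alone (0.64, adjusted p 0.601), while among females alone it was 1.08 (adjusted p 0.00569). Without the severe male the difference of severe from young mice was 1.60 (adjusted p 3.59e-06), and with these groups alone in the fit it was 1.31 and no longer passed (adjusted p 0.0568). The call in mild against middle-aged mice was lost with quantile normalization, with centring, without the sex covariate and among males alone (0.40 to 0.69, adjusted p 0.0528 to 0.472). Without the 8 arrays whose name carries a suffix, an alternative chosen after the data were seen, the mild calls of Tyrobp were lost against young mice (0.86, adjusted p 0.0557) and against middle-aged mice (0.73, adjusted p 0.101).

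Fcgr3, the low-affinity activating receptor, was also measured by 1 probe set (1448620_at). Its intensity in the severe mice was 457, 570, 450 and 452 in the females and 369 in the male. Young mice had a median of 194.4 (125 to 226), middle-aged ones of 220.7 (148.3 to 269) and those with mild presbycusis of 284.9 (182.4 to 490). All 5 severe mice stood above every one of the 25 young and middle-aged mice, and 7 of 9 mild mice stood above every young one. The level was 1.27 higher in severe than in young mice (SE 0.17, 95% interval 0.93 to 1.60, fold 2.41, adjusted p 6.74e-06) and 1.01 higher than in middle-aged mice (SE 0.15, adjusted p 3.68e-05). These calls held under all 30 alternatives run for each, with differences from 1.08 to 1.53 and from 0.88 to 1.14. In mild against young mice it was 0.65 higher (SE 0.14, 95% interval 0.37 to 0.93, fold 1.57, adjusted p 0.0255, higher in 9 of 9). Mild against middle-aged mice (0.40, SE 0.12, adjusted p 0.432), middle-aged against young mice (0.25, SE 0.12, unadjusted p 0.0457, adjusted p 0.962) and severe against mild mice (0.62, SE 0.16, unadjusted p 0.000545, adjusted p 1) did not pass.

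The mild-against-young call of Fcgr3 was lost under more of the alternatives than that of Tyrobp. It did not pass without young replicate 1, 2, 3 or 6 (0.58 to 0.64, adjusted p 0.0579 to 0.0946), without the 3 arrays with cerebellar signal (0.58, adjusted p 0.123), with quantile normalization (0.58, adjusted p 0.187), with arrays centred on their median (0.59, adjusted p 0.234) and with only those groups in the fit (0.66, adjusted p 0.37). Among females alone it was 1.10 (adjusted p 0.00418) and among males alone 0.25 (adjusted p 0.723).

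**Figure D2:**
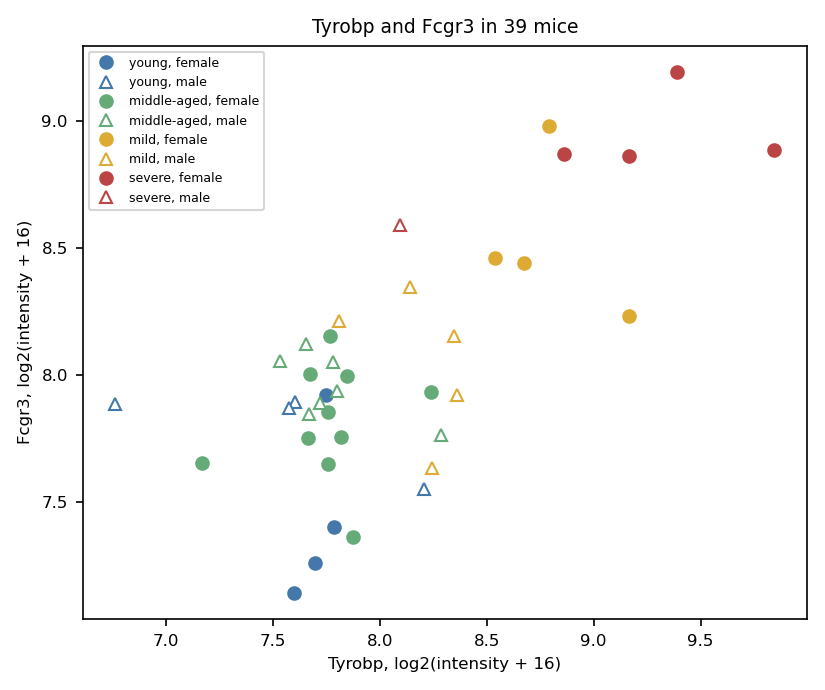
Each of the 39 mice by its Tyrobp level (horizontal axis) and its Fcgr3 level (vertical axis), both as log2(intensity + 16), coloured by group, with filled circles for females and open triangles for males. The severe and the mild females lie at the upper right, most males with mild presbycusis lie nearer to the controls, and within a colour the points form no clear line.

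Sex was not balanced over these groups, and the severe group holds only 1 male. In mild presbycusis the Tyrobp intensities of the 4 females were 356 to 558 and those of the 5 males 209 to 313, without overlap. The mean Fcgr3 level in mild presbycusis was 8.53 ± 0.32 in females (SD, n = 4) and 8.05 ± 0.28 in males (SD, n = 5). In young mice the order was the opposite, 7.43 ± 0.34 in females and 7.80 ± 0.17 in males (SD, n = 4 each). The change of the Fcgr3 sex difference from young to mild mice was -0.85 (male minus female, SE 0.24, unadjusted p 0.00131, adjusted p 0.0648 by limma), and it passed where the 40% dimmest probe sets were left out. The same change was -0.44 for Tyrobp (SE 0.30, adjusted p 0.515) and -0.72 for Fcer1g (SE 0.47, adjusted p 0.483). No member probe set passed the interaction (0 of 10, 1 of 10 at an unadjusted p under 0.05) where 1.23% of all probe sets did (15.4% unadjusted). The same interaction for middle-aged mice gave 0 of 10 members and 0% of all probe sets, with 7.27% of all under an unadjusted p of 0.05. Between males and females over all groups 0 of 10 members passed, against 0.0486% of all probe sets (unadjusted, 2 of 10 against 3.73%). The smallest unadjusted p there were 0.0118 for Fcgr2b 1451941_a_at (-0.39, SE 0.15) and 0.0197 for Tyrobp (-0.28, SE 0.12), both lower in males.

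Fcer1g, the adaptor through which Fcgr3 and Fcgr1 signal, had positive differences that did not pass (1418340_at). The severe mice had intensities of 142, 261, 178 and 243 in the females and 126 in the male. The young mice ranged from 60 to 136 with a median of 95.8, the middle-aged from 27.4 to 157.2 with a median of 114.9, and the mild mice from 72.4 to 200 with a median of 125.6. Of the severe mice 4 were above the highest young mouse, and the male was not. The difference was 0.82 in severe against young mice (SE 0.28, 95% interval 0.26 to 1.39, unadjusted p 0.00553, adjusted p 0.309) and 0.36 in mild against young mice (SE 0.23, adjusted p 0.842). Against middle-aged mice the severe difference was 0.78 (SE 0.25, adjusted p 0.306). The adjusted p of severe against young mice ranged from 0.0871 to 0.619 over the alternatives.

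Fcgr1, the high-affinity receptor, had its highest median in the severe mice but overlapping groups (1417876_at). Its severe intensities were 157, 134, 83.6 and 156 in the females and 190 in the male. The medians were 103 in young (62.3 to 152.5), 119.2 in middle-aged (73 to 214) and 143 in mild mice (118.6 to 226). All 9 mild mice were above the young mean, and 3 of 9 above the highest young mouse. The difference from young mice was 0.46 in mild (SE 0.19, 95% interval 0.07 to 0.85, unadjusted p 0.0207, adjusted p 0.656) and 0.39 in severe presbycusis (SE 0.23, 95% interval -0.07 to 0.85, adjusted p 0.749).

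Trem2, the receptor best known as the partner of Tyrobp in microglia, had no called difference in any comparison, and its estimates against young mice were negative on the brighter probe set. On the brighter probe set (1421226_at), severe intensities were 154, 31.9, 80.3 and 37.4 in the females and 161 in the male. Young mice had a median of 119.8 (52.8 to 147), middle-aged ones of 73.3 (24.4 to 162), mild ones of 38.4 (17.7 to 163.6) and severe ones of 80.3. The groups overlapped, and the SD of the log2 level was 0.43 in young mice and 0.76, 0.92 and 0.89 in middle-aged, mild and severe mice. Against young mice the difference was -0.84 in mild (SE 0.35, 95% interval -1.56 to -0.13, unadjusted p 0.0217, adjusted p 0.656) and -0.28 in severe presbycusis (SE 0.42, 95% interval -1.13 to 0.57, adjusted p 0.923). The interval for severe mice lies below the 1.36 of Tyrobp, but the genes' differences were not tested against each other. The second probe set (1421792_s_at) was dim, at percentile 9.4 of brightness among all probe sets, with intensities from 11.5 to 44.1 over all mice, and it differed by 0.06 in mild (SE 0.14) and 0.01 in severe mice (SE 0.16). The brighter one stood at percentile 27.1.

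Fcgr2b, the inhibitory receptor, gave different results on its 4 probe sets. On the brightest (1435476_a_at, at percentile 81.7) the severe intensities ranged from 580 to 1243 with a median of 681. The young ones ranged from 516 to 972 with a median of 711. This probe set differed from young mice by 0.25 in mild (SE 0.15, adjusted p 0.816) and 0.19 in severe presbycusis (SE 0.18, 95% interval -0.17 to 0.55, adjusted p 0.868). On this probe set the interval for severe mice thus lies below the 1.27 of Fcgr3, with no test between the genes. The interval of 1435477_s_at, described below, includes that value (0.44 to 1.43). Probe sets 1455332_x_at and 1451941_a_at differed by -0.02 (SE 0.28) and -0.18 (SE 0.26) in severe against young mice.

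The dimmest Fcgr2b probe set (1435477_s_at, at percentile 21.5) gave larger differences. Its severe intensities were 120, 60.2, 97.3 and 114 in the females and 85.7 in the male. The medians were 37.1 in young (16.9 to 72.1), 43.2 in middle-aged (16.8 to 97.2) and 73 in mild mice (46.6 to 105.5). Of the severe mice 4 were above the highest young mouse and 3 above the highest middle-aged mouse. The difference from young mice was 0.94 in severe (SE 0.24, 95% interval 0.44 to 1.43, adjusted p 0.0727) and 0.66 in mild presbycusis (SE 0.20, 95% interval 0.25 to 1.08, adjusted p 0.341), and neither passed. The severe difference passed with a pseudocount of 64 (0.56, adjusted p 0.0391) and without the sex covariate (0.99, adjusted p 0.0388). It also passed when severe replicate 2 was left out (1.07, adjusted p 0.0423), or young replicate 7 or 8 (1.02 and 1.03, adjusted p 0.0395 and 0.0232). Against middle-aged mice the severe difference was 0.85 (SE 0.22, 95% interval 0.41 to 1.28, adjusted p 0.0662), and it did not pass either. It passed with a pseudocount of 64 (0.52, adjusted p 0.0274), without the sex covariate (0.88, adjusted p 0.0403) and without the 3 arrays with cerebellar signal (0.87, adjusted p 0.0276). Leaving out severe replicate 2 or young replicate 2 had the same effect (0.98 and 0.83, adjusted p 0.0404 and 0.0475). The suffix of this probe set marks probes shared between transcripts, and Fcgr2b and Fcgr3 are close relatives, so its signal cannot be assigned to Fcgr2b alone. The dim Trem2 probe set 1421792_s_at carries the same suffix. With group means removed, over the 39 mice, it correlated with Fcgr3 at r 0.28 (rho 0.28, permutation p 0.086 and 0.11, adjusted over 10 pairs 0.29 and 0.53, r 0.36 without the 2 most distant mice). With the brightest Fcgr2b probe set it correlated at r -0.37 (rho -0.40, permutation p 0.023 and 0.016, adjusted 0.12 and 0.16, r -0.39 without 2 mice). The highest r with Fcgr3 was that of another Fcgr2b probe set, 1451941_a_at (r 0.40, rho 0.24, permutation p 0.019 and 0.16, adjusted 0.12 and 0.54). Its own difference in severe against young mice was -0.18. The brightest Fcgr2b probe set correlated with 1455332_x_at and 1451941_a_at at r -0.03 and -0.04. None of these 10 pairs, chosen after the values were seen, passed, and which transcripts the probes bind was not tested.

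**Figure D3:**
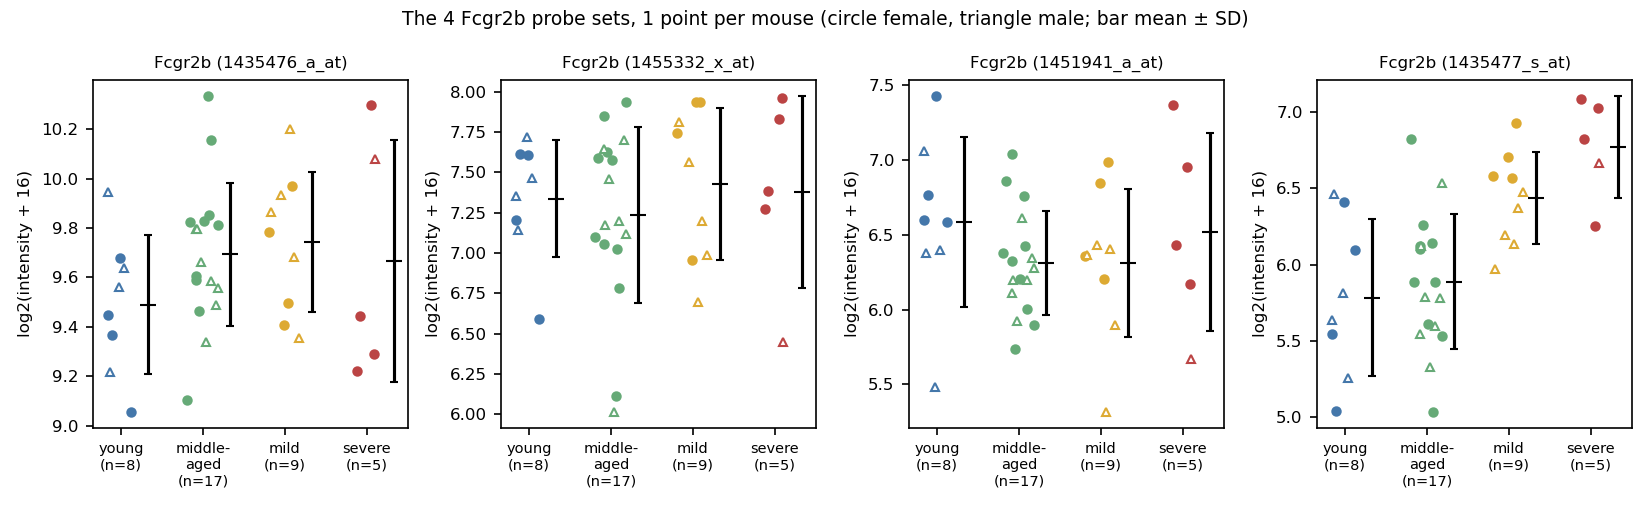
Levels of the 4 Fcgr2b probe sets, as log2(intensity + 16), by group, with 1 point per mouse (filled circles females, open triangles males) and bars for the mean ± SD. On 1435477_s_at the severe mean is 6.77 against 5.78 in young mice, on the other 3 the severe and young means lie within each other's SD, and levels of different probe sets are not comparable.

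Counted by comparison, the calls fell on Tyrobp and Fcgr3. In severe against young mice 2 of 10 member probe sets were called, both higher, where 0.504% of all probe sets were called higher and 0.53% in either direction, and 4 of 10 against 7.66% had an unadjusted p under 0.05. The median difference of the 10 was 0.29, against -0.03 over all probe sets. In mild against young mice 2 of 10 were called higher, against 0.168% of all (unadjusted, 5 of 10 against 6.61%), with a median of 0.30 against 0.03. In middle-aged against young mice 0 of 10 were called (1 at an unadjusted p under 0.05, Fcgr3, where 5.09% of all were), against 0.00442% of all, with a median of 0.07 against 0.00. Severe against middle-aged mice gave 2 of 10 higher, against 0.482% of all in that direction and 0.486% in either (unadjusted, 4 of 10 against 5.91%). Mild against middle-aged mice gave 1 of 10 (Tyrobp), against 0.11% (unadjusted, 4 of 10 against 4.11%). In severe against mild mice limma called 0 of 10 members and 0% of all probe sets, with 2 of 10 members (Tyrobp and Fcgr3) and 3.73% of all at an unadjusted p under 0.05. The comparisons with young mice share the same 8 controls. Of the 10 probe sets, 4 lay above the dimmest 40% of the array (Tyrobp, Fcgr3, and 1435476_a_at and 1455332_x_at of Fcgr2b), and the other 6 did not.

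**Figure D4:**
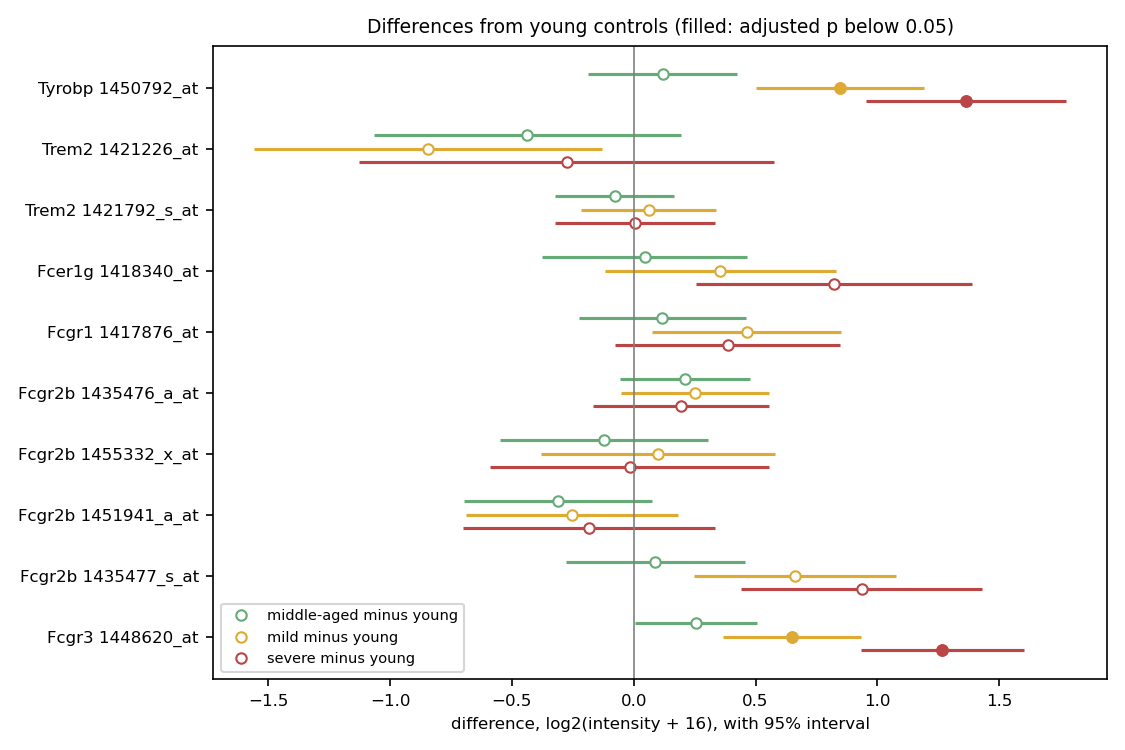
Difference of each of the 10 probe sets from the young controls in middle-aged, mild and severe mice, in log2(intensity + 16), with 95% intervals from limma and filled points where the adjusted p lies below 0.05. The filled points belong to Tyrobp (0.85 and 1.36) and Fcgr3 (0.65 and 1.27), and the 3 estimates for Trem2 1421226_at lie to the left of 0.

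With group means removed, 15 pairs of the brightest probe sets were correlated over 39 mice, and none passed (lowest adjusted permutation p 0.23 for Pearson and 0.19 for Spearman). That pair was Trem2 and Fcgr3 (r -0.40, rho -0.39, permutation p 0.015 and 0.013, r -0.30 without the 2 most distant mice). For Tyrobp and Fcgr3, the genes that rose together between groups, r was 0.15 (rho 0.14, permutation p 0.41 and 0.43), with r of -0.33 within young, -0.01 within middle-aged and 0.39 within mild mice. For Tyrobp and Trem2 r was -0.26 (rho -0.31, permutation p 0.14 and 0.07).

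The genes most like each member were sought among the brightest 60% of probe sets of other genes (12427 to 12429 candidates) by the same within-group correlation over 39 mice, as a description. Closest to Tyrobp was Cd68, a lysosomal glycoprotein of macrophages and microglia (r 0.70, and 0.89 over all mice without removal of group means). Rit1, Srgn, Lrwd1 and Necap2 followed with r from 0.62 to 0.58 (0.044, 0.765, 0.413 and 0.671 over all mice). Srgn is the core protein of a proteoglycan in immune cell granules. Closest to Fcgr3 was Ccng1, which encodes a cyclin induced by p53 (r 0.76), then Ak3, Mfsd14a, Idi1 and Rbm7 (0.72 to 0.70). Over all mice these 5 had r of 0.702, 0.728, 0.369, 0.34 and 0.619. Among the 5 closest to Trem2 (r 0.61 to 0.56) was Msr1, a macrophage scavenger receptor (0.56), beside Sprr3, Lgals9, Clcf1 and Reep5. The nearest were Rbm5 for Fcgr1 (0.71), Hspb8 for Fcgr2b (0.74) and Qrsl1 for Fcer1g (0.58). Each list holds the highest of all those values of r, so they carry no test.

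The wider pathway was read from lists of receptors, signalling proteins, ligands and targets. Of 22 measured activating receptors and partners (28 probe sets), 2 genes rose in severe against young mice, each on 1 probe set, and none fell, where 0.504% of all probe sets were called higher. Clec7a, or Dectin-1, a receptor of fungal glucans with an ITAM-like motif, rose by 1.84 (SE 0.18, adjusted p 1.2e-08), from a mean intensity of 252 in young and 289 in middle-aged mice to 500 in mild and 1110 in severe presbycusis, and its call held under all 30 alternatives. Itgb2, the beta chain of complement receptor 3, rose by 0.97 (SE 0.21, adjusted p 0.0113), from a mean of 221 to 439. Its call was lost in 5 of 30 alternatives, without severe replicate 1 or 3 (0.92 and 0.93, adjusted p 0.0564 and 0.052), with only those groups in the fit (0.93, adjusted p 0.0824), among females alone (1.00, adjusted p 0.0961) and without suffix arrays (0.88, adjusted p 0.182). Csf1r, the receptor for colony-stimulating factor 1, differed by 0.51 on its brightest probe set (SE 0.14, adjusted p 0.132). On its dimmest the mean intensity was 185 in young and 179 in severe mice. Clec4e differed by 1.08 (SE 0.42, adjusted p 0.451) and the Fc receptor-like Fcrls by 0.30 (SE 0.14, adjusted p 0.637). The median over the list was 0.11, against -0.03 over all probe sets. In mild against young mice Clec7a alone was called of this list (0.91, SE 0.15, adjusted p 0.00106, lost among males alone with 0.76 and adjusted p 0.221), and Fcgr4, the other activating Fc receptor of mice, differed by 0.32 (SE 0.14, adjusted p 0.676).

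Calls in the inhibitory and signalling lists stand beside 0.53% of all probe sets called in severe and 0.168% in mild against young mice. At such shares, lists of this size hold few calls or none. Of 11 measured ITIM receptors none was called in severe or mild against young mice (median -0.09 and 0.02), with Sirpa, a receptor for CD47, at 0.30 (SE 0.17, adjusted p 0.731) and Pilra at -0.59 (SE 0.33, adjusted p 0.732) in severe mice. Of 33 kinases, adaptors and phosphatases downstream of ITAMs (55 probe sets), 1 rose in severe against young mice, the kinase Tec (1.503, SE 0.36, adjusted p 0.0358), from a mean intensity of 28.6 to 111. The call was lost in 15 of 29 alternatives, among them those without severe replicate 1, 3 or 4 or young replicate 1, 3, 5, 6 or 7 (1.33 to 1.54, adjusted p 0.0504 to 0.165), without the 3 arrays with cerebellar signal (1.58, adjusted p 0.0509) and without suffix arrays (1.24, adjusted p 0.372). Btk, a relative of Tec, differed by 1.08 (SE 0.41, adjusted p 0.429), and the adaptors Grb2 and Dok3 by -0.35 (SE 0.14, adjusted p 0.491) and -0.49 (SE 0.21, adjusted p 0.553). The list's median was -0.04. Against middle-aged mice Clec7a (1.70, adjusted p 1.2e-08), Itgb2 (0.80, adjusted p 0.0294) and Tec (1.46, adjusted p 0.0156) rose in severe presbycusis as well. There the call of Itgb2 was lost in 7 of 30 alternatives, among them those without severe replicate 1, 2, 3 or 5 (adjusted p 0.0653 to 0.158) or suffix arrays (adjusted p 0.269). That of Tec was lost in 6 of 29, among them those without severe replicate 1, 3 or 4 (adjusted p 0.0657 to 0.122) or suffix arrays (adjusted p 0.285). Of 5 measured immunoglobulin chain genes (23 probe sets), the ligands of Fc receptors, none was called (median -0.04), and the smallest p belonged to Igk (-0.54, SE 0.29, adjusted p 0.698).

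Among genes tied to Trem2 by function some rose. Of 9 measured genes that depend on Trem2 in mouse microglia (16 probe sets), 3 rose in severe against young mice, each on 1 probe set, where 0.504% of all probe sets were called higher. The list median was 0.26, against -0.03 over all probe sets. Gpnmb, a lysosomal glycoprotein, rose by 1.67 (SE 0.31, adjusted p 0.0017), from a mean intensity of 70.4 to 282, and was called under all 29 alternatives. Cst7, which encodes the protease inhibitor cystatin F, rose by 1.46 (SE 0.30, adjusted p 0.00563), from 19.5 to 115, and its call was lost with only those groups in the fit (1.35, adjusted p 0.19). The tetraspanin Cd9 rose by 0.96 (SE 0.21, adjusted p 0.00988), from 494 to 979, and lost its call without severe replicate 2 or 3 (0.89 and 0.88, adjusted p 0.0587 and 0.0605) and with only those groups in the fit (0.98, adjusted p 0.102). Itgax differed by 0.72 (SE 0.20, adjusted p 0.129) and Ccl6 by 0.87 (SE 0.28, adjusted p 0.249). In mild against young mice none of the 9 was called, with Cst7 at 0.92 (SE 0.25, adjusted p 0.204). Against middle-aged mice 4 rose in severe presbycusis, the same 3 and Ccl6 (1.16, adjusted p 0.0104, lost without severe replicate 1, 3 or 5 with adjusted p 0.0527 to 0.0908).

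In severe against young mice 0.504% of all probe sets were called higher. Of 8 measured ligands, sheddases and modulators of Trem2 (18 probe sets), 1 rose there. This was Lpl, lipoprotein lipase (1.03, SE 0.25, adjusted p 0.0441), and the call was lost in 16 of 30 alternatives, among them those without severe replicate 1, 2, 3 or 5, young replicate 1, 2, 4 or 6, or middle-aged replicate 4 (0.84 to 1.04, adjusted p 0.0527 to 0.17). It was lost as well without the 3 arrays with cerebellar signal (0.81, adjusted p 0.179). On a second, dim Lpl probe set the difference was -0.08 (SE 0.35). The list had 3 calls when severe replicate 4 was left out and 2 without young replicate 8. Lgals3, or galectin-3, differed by 1.00 (SE 0.26, adjusted p 0.0627), Ms4a6d by 1.10 (SE 0.29, adjusted p 0.0895) and Apoe by 0.49 (SE 0.22, adjusted p 0.601), while the list's median was 0.04. Against middle-aged mice Lgals3 passed as well (1.02, adjusted p 0.0171, lost in 5 of 29 alternatives, among them without severe replicate 1, 2 or 3 with adjusted p 0.0589 to 0.18), beside Lpl (0.98, adjusted p 0.0218, lost in 7 of 30, among them without severe replicate 1, 2, 3 or 5 with adjusted p 0.0667 to 0.154).

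**Figure D5:**
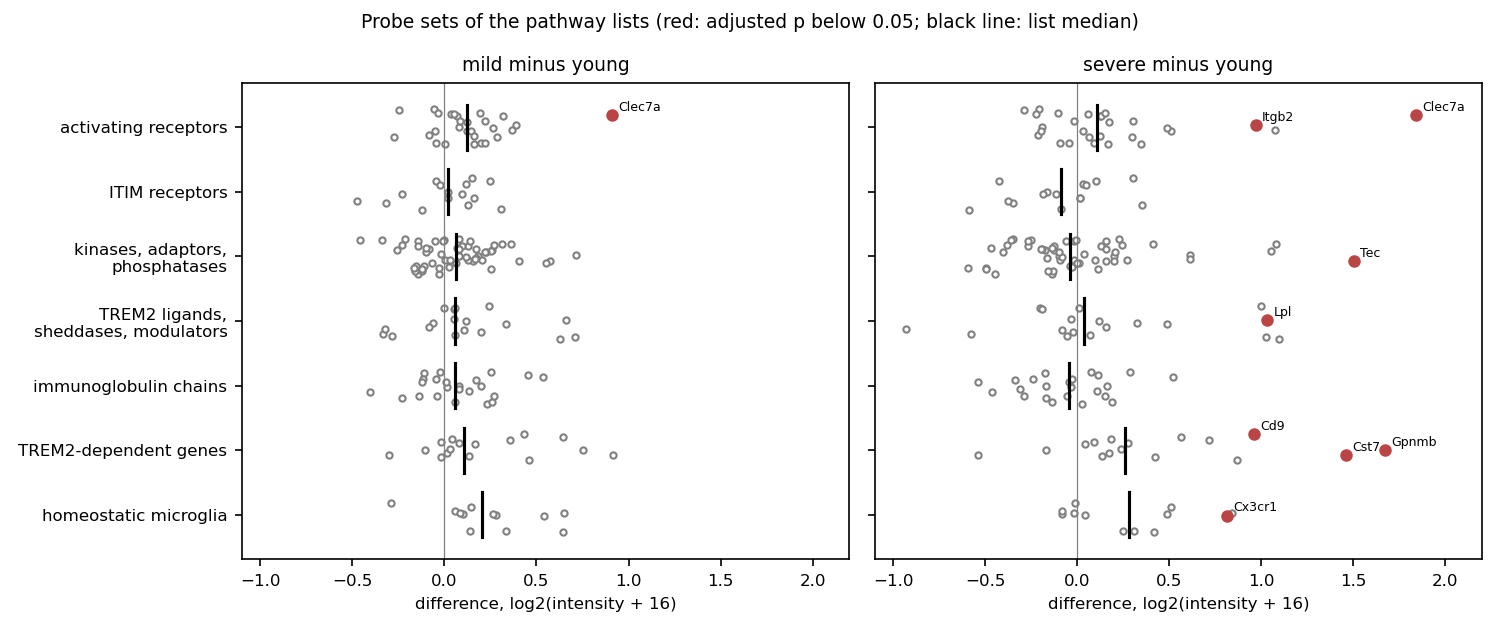
Difference in log2(intensity + 16) of every probe set of the 7 pathway lists in mild (left) and severe (right) against young mice, with called probe sets in red and named, and a black line at each list's median. In mild mice 1 red point is seen (Clec7a, 0.91), and in severe mice 8, all to the right, while the medians of the lists in severe mice lie between -0.09 and 0.28.

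Markers of cell types are given beside these values. The summed intensity of the 9 measured of 12 markers of homeostatic microglia ran from 3430 to 5282 in young, 4211 to 5954 in middle-aged, 4706 to 6149 in mild and 5756 to 8597 in severe mice, so that the severe mice did not overlap the young ones. The brightest marker, Csf1r, weighed most in this sum (mean intensity 2490 in young and 3720 in severe mice) and was not called. The mean of Cx3cr1 was 547 in young and 973 in severe mice. The means of Slc2a5 (339 and 328) and Sall1 (67.1 and 65.2) were slightly lower in severe mice. Of the 9 markers Cx3cr1, the fractalkine receptor, rose in severe against young mice on 1 of its 2 probe sets (0.81, SE 0.16, adjusted p 0.0044, and -0.08 with SE 0.14 on a dim one) and did not pass in mild mice (0.54, SE 0.14, adjusted p 0.113). The severe call of Cx3cr1 was lost with only those groups in the fit (0.82, adjusted p 0.243) and among females alone (0.91, adjusted p 0.0689). Gpr34 (0.84, SE 0.23, adjusted p 0.0983), P2ry12 (0.31, SE 0.16, adjusted p 0.67) and Tmem119 (0.25, SE 0.16, adjusted p 0.785) did not pass in severe mice. The median over the 12 probe sets was 0.28 in severe and 0.20 in mild against young mice. The part of a change in the amount of microglia in the member differences was not tested.

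Other immune cell types showed no called marker, where 0.53% of all probe sets were called in severe and 0.168% in mild against young mice. At such shares, lists of this size hold few calls or none, so the absence of calls does not show unchanged cells. Of 8 measured markers of monocytes and other macrophages none passed in severe or mild against young mice, and their sum ran from 883 to 1641 in young and 885 to 1618 in severe mice. The same held for 7 neutrophil, 6 T cell, 5 NK cell, 5 B and plasma cell and 6 mast cell markers, and their summed intensities in severe mice overlapped those in young mice. No marker stood at 0, because the intensities have a positive floor, and levels of different probe sets are not comparable. Mean intensities of the groups ran from 14.2 to 126 for Ccr2 on 3 probe sets, from 188 to 242 for Pf4 and from 185 to 243 for Ms4a7, all of the macrophage list. Among neutrophil markers Camp was at most 23.4 in any group, Ngp 236 to 290, Ltf 217 to 309 and Mpo 169 to 213. S100a9 had the largest difference of that list in severe against young mice (0.915, SE 0.36, adjusted p 0.444). Its mean intensity was 56.2 in young and 103 in severe mice. Of the 7 neutrophil probe sets 2 had a positive difference there, and the median was -0.078. Among T cell markers Cd3d was at most 21.2 and Cd8a 124 to 142 on 1 of its 2 probe sets. Cd3e differed by 0.494 in severe against young mice (SE 0.30, adjusted p 0.757). Of the 8 T cell probe sets 2 had a positive difference there, and the median was -0.211. Of 5 astrocyte markers Gfap rose in severe mice on 1 of 2 probe sets (1.51, SE 0.32, adjusted p 0.00793, and 0.88 with SE 0.34 and adjusted p 0.433 on the other), with a summed level of 3685 to 6302 in young and 5004 to 8268 in severe mice. No marker of neurons (7), oligodendrocytes (4), endothelium (5), red blood cells (2), cerebellum (6), choroid plexus (3) or meninges and fibroblasts (7) was called in severe against young mice. The median differences of these lists were, in that order, -0.242, -0.266, 0.085, 0.214, -0.297, -0.139 and -0.036, against -0.03 over all probe sets. Of 10 neuron probe sets 1 had a positive difference. The part of tissue composition in the member differences was not tested. The cerebellar sum reached 30290 in young, 23390 in middle-aged, 4202 in mild and 3515 in severe mice. Without the 3 arrays with that signal Tyrobp and Fcgr3 differed between severe and young mice by 1.33 and 1.18 (adjusted p 0.000421 and 5.62e-05). These differences were 1.29 and 1.26 once the 3′ over 5′ ratio entered as a covariate, and among the arrays without a suffix in their name they were 1.65 and 1.35.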

How the data were processed

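Whole-genome expression was measured on 1 Affymetrix MOE430A array for each of 39 mice. The deposited values used are probe-set intensities on a linear scale from the series' value table. Which algorithm made them is not stated in the sources used here, and with 2% trimmed at each end every array has a mean of 500.1 to 500.2, so the authors' values had been scaled to a common level. The deposited probe table gave 20380 probe sets 1 gene symbol, 691 several and 1555 none, and 64 array controls were left out. Of the probe sets with 1 symbol, 20351 had their gene in the RefSeq gene table. The authors' RMA table of 33 probe sets was used for its array names alone, and 249 further per-sample columns stayed out.

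The intensities were taken as log2(intensity + 16) without further normalization. The model, in limma 3.58.1 (R 4.3.3), had a mean for each group and a term for sex, a variance trend and Benjamini-Hochberg adjustment over 22626 probe sets, a threshold of 0.05 and 34 residual degrees of freedom, and it was tested on simulated data. Tables and figures used Python 3.11.15, pandas 2.3.3 and matplotlib 3.10.9. The number of arrays limits the precision. The members, the 7 pathway lists and the marker lists were chosen with earlier results of these data known. The members, the called genes and, by p, up to 4 genes of each list were named, and the 5 genes most correlated with each member among the brightest 60%. Correlations used 100000 permutations within groups. Promoter windows were searched for GAGGAA on both strands. Alternatives changed the normalization, pseudocount, filter, covariates, variance model, sexes and arrays included.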

Additional observations from a re-analysis of the deposited data

Results flagged for a closer look

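Dixon's criterion for the distance of 1 sample from the rest of its group, at the 95% level, was met in 3 of the 30 member groups tested, and chance alone meets it in about 1 of 20. In young mice replicate 4 had a Tyrobp level of 6.76 in log2(intensity + 16), and the other young mice lay between 7.57 and 8.21. On the dim Trem2 probe set 1421792_s_at, mild replicate 8 had a level of 5.91 where the other mild mice lay between 4.98 and 5.42. On the same probe set severe replicate 1 had a level of 5.64 where the other severe mice lay between 5.1 and 5.19.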

How the results depend on the processing

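No paired analysis was possible because every array is of a different mouse and the mouse numbers do not repeat between groups. The higher Tyrobp and Fcgr3 levels in severe presbycusis kept their direction under every alternative run, and the Tyrobp call against young mice was lost only with those 2 groups alone in the fit (adjusted p 0.0568), where 1 of the 2 member calls was left. Leaving out 1 mouse was done, here and below, for each young mouse, each severe mouse and middle-aged replicate 4. No mild mouse and no other middle-aged mouse was left out in this way. In severe against young mice the count of calls was 2 to 3 when 1 mouse was left out. The 2 calls in mild against young mice became 1 with quantile normalization, with arrays centred on their median and without the arrays that carry a name suffix, an alternative chosen after seeing the data. They became 0 with only 2 groups in the fit, among males alone and without the 3 arrays with cerebellar signal, and were 1 to 2 when 1 mouse was left out. The 1 call in mild against middle-aged mice became 0 with quantile normalization, centring, no sex covariate, males alone or the suffix arrays left out. The sex interaction had 1 call in place of 0 without the 40% dimmest probe sets. The cause of these changes was not tested. Males alone could not be run for the severe group, which holds 1 male.

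The estimates that changed sign all belong to differences that were not called. In middle-aged against young mice, Trem2 1421792_s_at (-0.078) became 0.017 among males and 0.002 without the arrays with cerebellar signal. Fcer1g (0.045) became -0.137 among males and was -0.043 to 0.108 with 1 mouse left out. Fcgr1 (0.117) became -0.056 without suffix arrays, and Fcgr2b 1455332_x_at (-0.121) became 0.011 among females. Fcgr2b 1435477_s_at (0.088) became -0.093 without the arrays with cerebellar signal and was -0.039 to 0.197 with 1 mouse left out.

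In mild against young mice, Trem2 1421792_s_at (0.061) became -0.175 among females and -0.052 without suffix arrays, and was -0.003 to 0.135 with 1 mouse left out. Fcgr2b 1455332_x_at (0.099) became -0.167 among males and was -0.022 to 0.172 with 1 mouse left out. In mild against middle-aged mice, Trem2 1421226_at (-0.408) became 0.209 among males. Fcgr2b 1435476_a_at (0.041) became -0.022 with centring, -0.019 with array weights and -0.094 among females. Fcgr2b 1451941_a_at (0.057) became -0.009 with quantile normalization, -0.007 with centring and -0.155 among males.

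In severe against young mice, Trem2 1421792_s_at (0.005) became -0.003 with a pseudocount of 64, -0.042 with 2 groups, -0.097 among females, -0.023 with the 3′ over 5′ ratio as covariate, -0.008 with the suffix as covariate and -0.025 without suffix arrays, and was -0.085 to 0.08 with 1 mouse left out. Fcgr2b 1455332_x_at (-0.017) became 0.021 with quantile normalization, 0.019 with centring, 0.042 without the sex covariate, 0.047 with array weights, 0.357 among females, 0.08 with the suffix as covariate, 0.011 without the arrays with cerebellar signal and 0.148 without suffix arrays, and was -0.157 to 0.223 with 1 mouse left out. Fcgr2b 1451941_a_at (-0.184) became 0.107 without suffix arrays.

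In severe against middle-aged mice, Trem2 1421226_at (0.161) became -0.245 among females and -0.022 without suffix arrays, and was -0.065 to 0.384 with 1 mouse left out. With 1 mouse left out Trem2 1421792_s_at (0.084) was -0.007 to 0.125, Fcgr2b 1455332_x_at (0.104) was -0.028 to 0.336 and Fcgr2b 1451941_a_at (0.126) was -0.064 to 0.286. Fcgr2b 1435476_a_at (-0.016) became 0.015 with centring, 0.027 with array weights and 0.016 with the 3′ over 5′ ratio, and was -0.174 to 0.091 with 1 mouse left out.

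In severe against mild mice, Trem2 1421792_s_at (-0.056) became 0.009 with quantile normalization, 0.038 with centring, 0.003 with 2 groups, 0.077 among females and 0.027 without suffix arrays. Fcgr1 (-0.076) became 0.024 with quantile normalization and 0.018 with centring, and was -0.198 to 0.079 with 1 mouse left out. Fcgr2b 1435476_a_at (-0.057) became 0.037 with centring, 0.009 with 2 groups and 0.046 with array weights, and was -0.212 to 0.048 with 1 mouse left out. Fcgr2b 1455332_x_at (-0.116) became 0.033 with array weights and 0.142 without suffix arrays, and was -0.247 to 0.129 with 1 mouse left out. Fcgr2b 1451941_a_at (0.069) became -0.028 with 2 groups and was -0.117 to 0.239 with 1 mouse left out. Only 5 mice had severe presbycusis, and of these probe sets 1435476_a_at and 1455332_x_at alone lay above the dimmest 40% of the array.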
